A study of Homo sapiens with 6 samples.

Results

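Molecular chaperones and heat shock genes were compared between 2D plate cultures and 3D bioreactor cultures of HepG2, an established human line from a liver tumour. The members were the protein-coding genes whose symbol begins with HSP or DNAJ, the chaperonin subunits TCP1 and CCT2 to CCT8, the co-chaperones BAG1 to BAG6, and the heat shock factors HSF1 and HSF2. The name pattern took 89 of the 19846 genes in the table. Of these, 8 were left out by name, namely the secretory pathway chaperones HSPA5, HSP90B1, HSPA13, DNAJB9, DNAJB11, DNAJC3 and DNAJC10 and the proteoglycan gene HSPG2, which left 81 members. In 74 of the 81 there were enough reads for a test. The other 7 (HSPA2, HSPA6, DNAJA4, DNAJB13, HSPB6, HSPB9 and the readthrough gene HSPE1-MOB4) were too low for one. The name pattern is not strictly cytosolic: by general knowledge 8 members act in mitochondria and 6 are J-domain proteins of the endoplasmic reticulum.

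The 2D group held 3 samples of HepG2 cells at passage 7 to 9, seeded into plates at 200000 cells per cm2 and kept in EMEM that was changed every 2 days. The 3D group held 3 samples of the same line and passages from a bioreactor of interwoven hollow fibers, in a mixture of EMEM and DMEM with 10% fetal bovine serum. In the bioreactor the medium was recirculated at 23.5 mL/min and fresh medium entered at 2 mL/hour. Geometry, medium and flow therefore changed together and their parts cannot be told apart. The labels leave unsaid whether the replicates of each culture were grown separately, so every p-value here reflects sample-to-sample spread that may be technical. In bulk RNA, fewer cells of a type and less RNA per cell cannot be told apart.

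Estimated counts per library totalled between 16270361 and 17943513 for plates and between 9530795 and 15897621 for the bioreactor, the lowest being 3D replicate 1. A count of 3 in a library corresponded to between 0.167 and 0.298 CPM, the usual count scaled to a fixed library size, with library sizes corrected for composition by the TMM method; this covers counting error only. On the second principal component, which took 14.1% of the variance, 3D replicate 1 stood at 37.9 and the other two 3D libraries at −17.2 and −27.5. All 10 hepatic markers examined were present, and their summed level was 40202 to 44596 CPM in 2D and 31327 to 50181 CPM in 3D. Of these 10, 2 were called higher in 3D (APOA1 and TF) and 1 lower (APOB), and the others were not called. Among markers of other cells, endothelial genes summed to at most 5.49 CPM in any library. Of 6 fibroblast markers 2 had a row, their sums being 7.03 to 14.0 CPM for plates and 2.98 to 3.75 CPM for the bioreactor. PDGFRB, the 1 of these that could be tested, was called lower in 3D. The sum of 3 blood and macrophage markers, most of it LYZ, came to 979.6 to 1476 CPM for plates and 436 to 1015 CPM for the bioreactor. LYZ was not called, whereas CD68, the called marker of that list, was at 6.14 to 9.58 CPM in plates and at 22.3 to 41.4 CPM in the bioreactor. The part of these markers in the results below was not tested.

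Chaperones bind unfolded or partly folded proteins and keep them from aggregating. HSP70 proteins bind and release such clients in an ATP cycle: J-domain proteins (DNAJ) bring clients and trigger ATP hydrolysis, and nucleotide exchange factors (the HSP110, BAG and HSPBP1 proteins) release ADP. HSP90 finishes and holds signalling proteins and receptors, the ring-shaped chaperonin TRiC folds actin and tubulin in the cytosol, and HSPD1 with its lid HSPE1 forms the chaperonin of mitochondria. Under heat or other proteotoxic stress the transcription factor HSF1 binds heat shock elements in the promoters of many of these genes. In hepatocytes the same machinery serves a high rate of protein synthesis, much of it for secretion.

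The members moved in both directions. In 3D, 14 of the 74 tested members rose and 11 fell by edgeR's quasi-likelihood test at an adjusted p under 0.05, together 33.8%. Among all 15314 genes tested, 36.6% passed the same threshold (19.0% higher and 17.6% lower in 3D), so the members' share was near the background. Their median log2 fold change of 3D over 2D was 0.13, against 0.02 over all genes tested. The members' median was not stable: it was −0.01 without 3D replicate 2, 0.05 without 2D replicate 3 and 0.08 without 2D replicate 2, without 3D replicate 3 or with offsets for transcript length and GC content. The 3D libraries all lay above the 2D libraries in 23 members and all below in 14, where 25.6% and 24.9% of all tested genes did so. Summed over the 81 members, the level was 12799, 12358 and 10756 CPM in the 2D libraries and 11574, 13440 and 12757 CPM in the 3D libraries, and the groups overlapped. The counts of calls leaned on the 2D libraries: 9 members were higher and 6 lower without 2D replicate 1, 7 and 6 without 2D replicate 2, and 9 and 7 without 2D replicate 3.

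**Figure D1:**
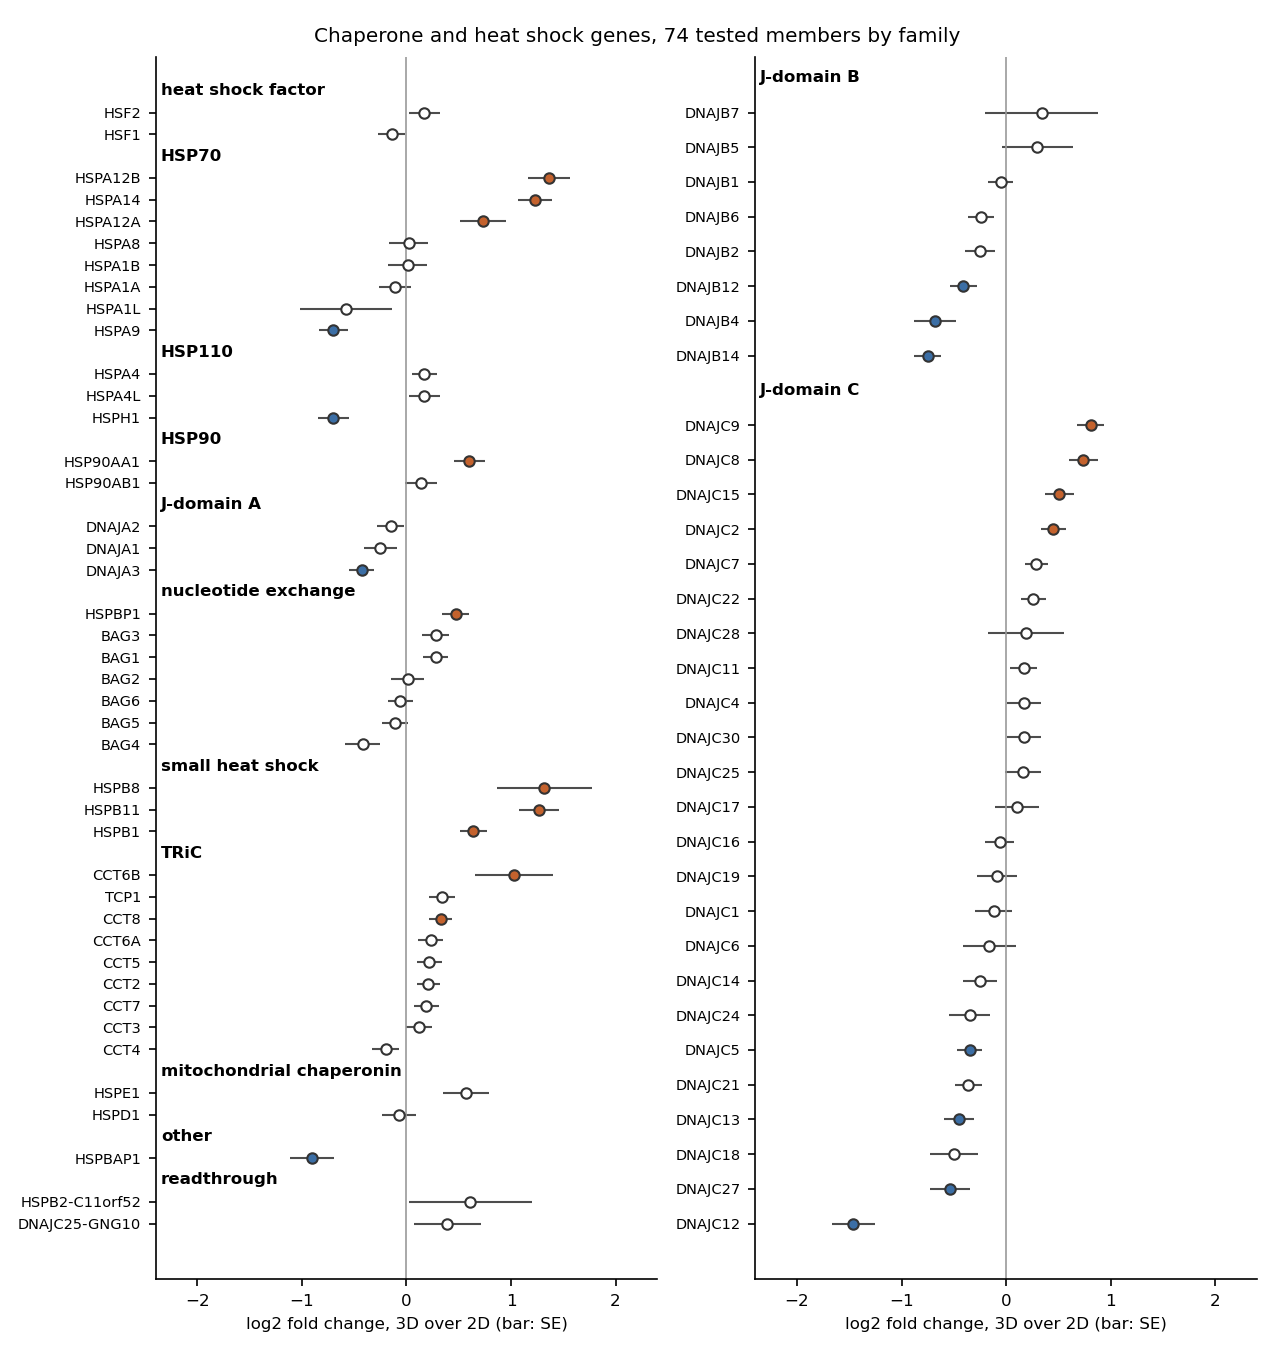
Log2 fold change (3D over 2D, x axis) of the 74 tested members, sorted within families; bars are standard errors from 3 libraries a group, orange points rose, blue points fell and open points did not pass edgeR's adjusted p under 0.05. The 3 small heat shock genes lie to the right of 0, the 3 J-domain A genes to the left (DNAJA2 is at 0.03 with length and GC offsets), and HSP70 and J-domain C genes on both sides.

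HSF1, the main activator of the heat shock response (chr8:144291591-144314723, hg38), stood at 69.7, 65.9 and 66.0 CPM in 2D and at 70.5, 51.9 and 60.7 CPM in 3D. The groups overlapped, and the log2 fold change was −0.14 ± 0.13 (SE; edgeR adjusted p = 0.429). With offsets for transcript length and GC content, described below, it was −0.44 with an adjusted p of 0.00327 in edgeR, so the call for HSF1 depended on that setting. HSF2, a related factor active in development, gave 20.7, 18.8 and 22.4 CPM in 2D and 21.4, 21.1 and 27.1 CPM in 3D, with overlapping groups and a log2 fold change of 0.17 ± 0.15 (SE; edgeR adjusted p = 0.413). Since HSF1 is controlled largely at the protein level, its messenger RNA does not measure its activity.

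A list of 14 members known to be induced by heat was described next, of which 13 were tested; 2 rose (HSPB1 and HSP90AA1), 1 fell (HSPH1) and 10 did not pass. Their median log2 fold change was 0.02, equal to the value over all genes tested to this precision, and 23.1% were called against 36.6% of all genes. The best known stress-inducible genes are the near-identical HSP70 copies HSPA1A and HSPA1B, between which reads can be divided wrongly. HSPA1A was at 112, 125 and 81.7 CPM in 2D and at 98.8, 98.9 and 97.6 CPM in 3D. HSPA1B was at 207, 227 and 146 CPM in 2D and at 231, 198 and 155 CPM in 3D. In both genes the groups overlapped and the lowest 2D library was replicate 3. The log2 fold changes were −0.11 ± 0.15 for HSPA1A and 0.01 ± 0.19 for HSPA1B (SE; edgeR adjusted p = 0.589 and 0.983). HSPA6, an HSP70 gene that is nearly silent without stress, had 4, 3 and 15 counts in the 2D libraries and 1, 2 and 12 in the 3D libraries, so it was at or near the floor of 3 counts in 4 of the 6 libraries.

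The J-domain partner DNAJB1, which works with inducible HSP70, was at 157, 175 and 152 CPM in 2D and at 149, 149 and 169 CPM in 3D. DNAJA1, a J-domain protein of the cytosol, was at 277, 326 and 225 CPM in 2D and at 189, 255 and 250.3 CPM in 3D. Groups overlapped in both, with log2 fold changes of −0.05 ± 0.12 and −0.25 ± 0.16 (SE; edgeR adjusted p = 0.750 and 0.248). BAG3, which links HSP70 to small heat shock proteins and autophagy, was at 27.0, 27.1 and 24.3 CPM in 2D and at 32.3, 29.7 and 33.0 CPM in 3D. All 3 BAG3 values of 3D lay above those of 2D, yet the log2 fold change of 0.28 ± 0.13 did not pass (SE; edgeR adjusted p = 0.115). Also on the list were HSPA8, HSP90AB1, HSPD1, HSPE1 and HSPA4L. Summed over the 14 genes of the list, the level was 7604, 7475 and 6072 CPM in 2D and 6878, 8434 and 7741 CPM in 3D. Most of this sum came from HSP90AB1, HSPD1, HSPA8 and HSP90AA1, so it says little about the less abundant genes. Replicate 3 was the lowest of the 2D libraries in 11 of the 13 tested genes, and 3D replicate 1 was the lowest of the 3D libraries in 7. Over all 74 tested members the same libraries were lowest in 41 and 37. The libraries of one culture thus differed among themselves across the members and not only in these genes.

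**Figure D2:**
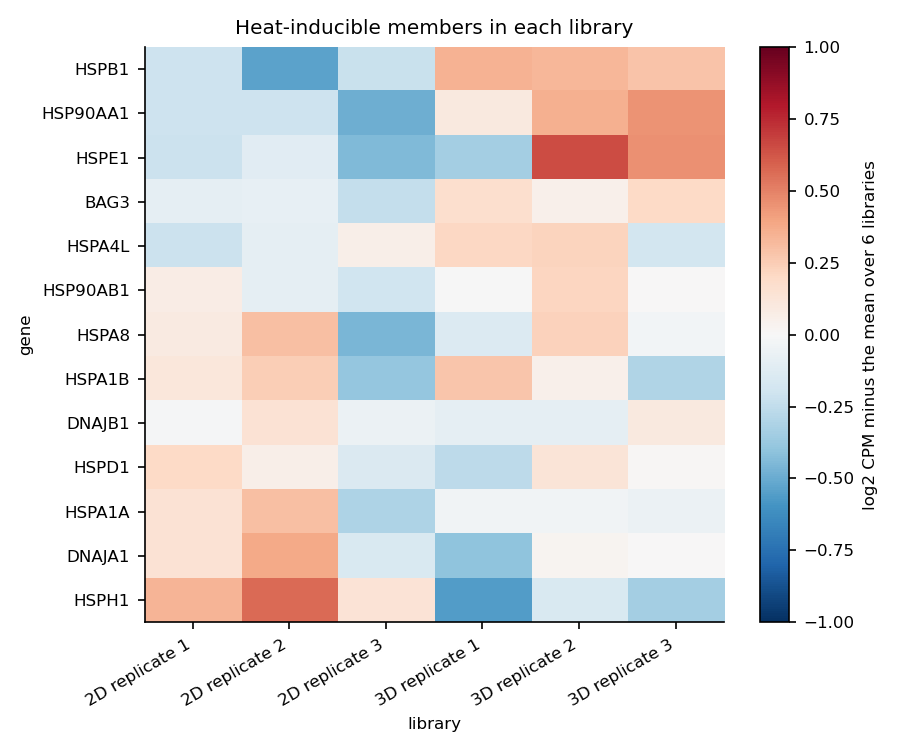
Heat-inducible members (rows) in each of the 6 libraries (columns), coloured by log2 CPM minus the gene's mean over the 6 libraries. HSPB1 and HSP90AA1 are above their mean in the 3 libraries of 3D, HSPH1 is below it there, and most other rows change colour within a group as well as between groups.

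Heat shock elements were searched for in RefSeq promoter windows of 300 bases, from 250 bases before to 50 after each annotated start (GRCh38.p14), because these elements are the sites that HSF1 recognises. The motif was 3 alternating units, GAANNTTCNNGAA or TTCNNGAANNTTC, which are reverse complements, so that both strands were covered. Of all 27305 genes with a window in the promoter reference, whether or not they were measured here, 166 held the motif (0.608%). A window was found for 71 members, and 7 of them (9.86%) held it. The shorter motif of 2 units, GAANNTTC or TTCNNGAA, which lies inside the longer one, was in 36.6% of these members and in 16.2% of genes. The 7 members were HSPA6, HSPA8, HSPD1, HSP90AA1, HSP90AB1, DNAJA1 and DNAJB6. Of these, HSP90AA1 rose in 3D, the other tested ones did not pass, and HSPA6 was too low to test. The match describes letters in the window and does not show that a factor was bound. HSPA1A, HSPA1B, HSPB1, HSPH1, DNAJB1 and BAG3, all on the heat-inducible list, are not among the 7. A member without a match may have had no window, or may hold an element outside the window or of another form. A missing match therefore does not show that a promoter lacks heat shock elements. The stretches below are shown to set the motif of the gene that rose beside those of genes that did not pass; each runs 5′ to 3′ on the gene's strand, with the motif in capitals. HSP90AA1 has it 88 bases before its start (chr14:102087112-102087140, − strand), HSP90AB1 165 and 112 bases before (chr6:44247770-44247798 and chr6:44247823-44247851, + strand), HSPA8 230 and 55 bases before (chr11:123062346-123062374 and chr11:123062171-123062199, − strand), and HSPD1 245 bases before, where matches overlap (chr2:197500062-197500090, − strand).
HSP90AA1: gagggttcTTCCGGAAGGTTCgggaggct
HSP90AB1, farther: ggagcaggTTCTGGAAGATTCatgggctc
HSP90AB1, nearer: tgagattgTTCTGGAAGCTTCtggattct
HSPA8, farther: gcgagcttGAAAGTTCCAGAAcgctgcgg
HSPA8, nearer: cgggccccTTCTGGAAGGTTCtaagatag
HSPD1: gcattTTCTGGAAAGTTCTGGAAccgagc

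Of the HSP90 pair, both on the heat-inducible list, HSP90AA1 rose and HSP90AB1, the form with the higher level here, did not pass. HSP90AA1 (chr14:102080738-102139700) was at 971, 972 and 801 CPM in 2D and at 1202, 1435 and 1533 CPM in 3D. Every 3D library lay above every 2D library, by 1.52-fold on average (log2 fold change 0.60 ± 0.15, SE; edgeR adjusted p = 0.00860), and the call held in each alternative analysis run. HSP90AB1 (chr6:44246166-44253889) was at 2363, 2114 and 1957 CPM in 2D and at 2244, 2612 and 2259 CPM in 3D, with overlapping groups. Its log2 fold change was 0.14 ± 0.15 (SE; edgeR adjusted p = 0.461). The count ratio of HSP90AA1 to HSP90AB1 within a library, which no library scaling can change, was 0.411, 0.460 and 0.410 in 2D and 0.536, 0.549 and 0.679 in 3D. The ratios did not overlap; with 3 against 3 libraries the two-sided exact permutation test cannot go below p = 0.1, and it gave 0.1. This ratio was 1 of 6 that were computed, all chosen after the genes' values were seen; the exact permutation p was 0.1 for each of the 6, also after Benjamini-Hochberg adjustment.

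**Figure D3:**
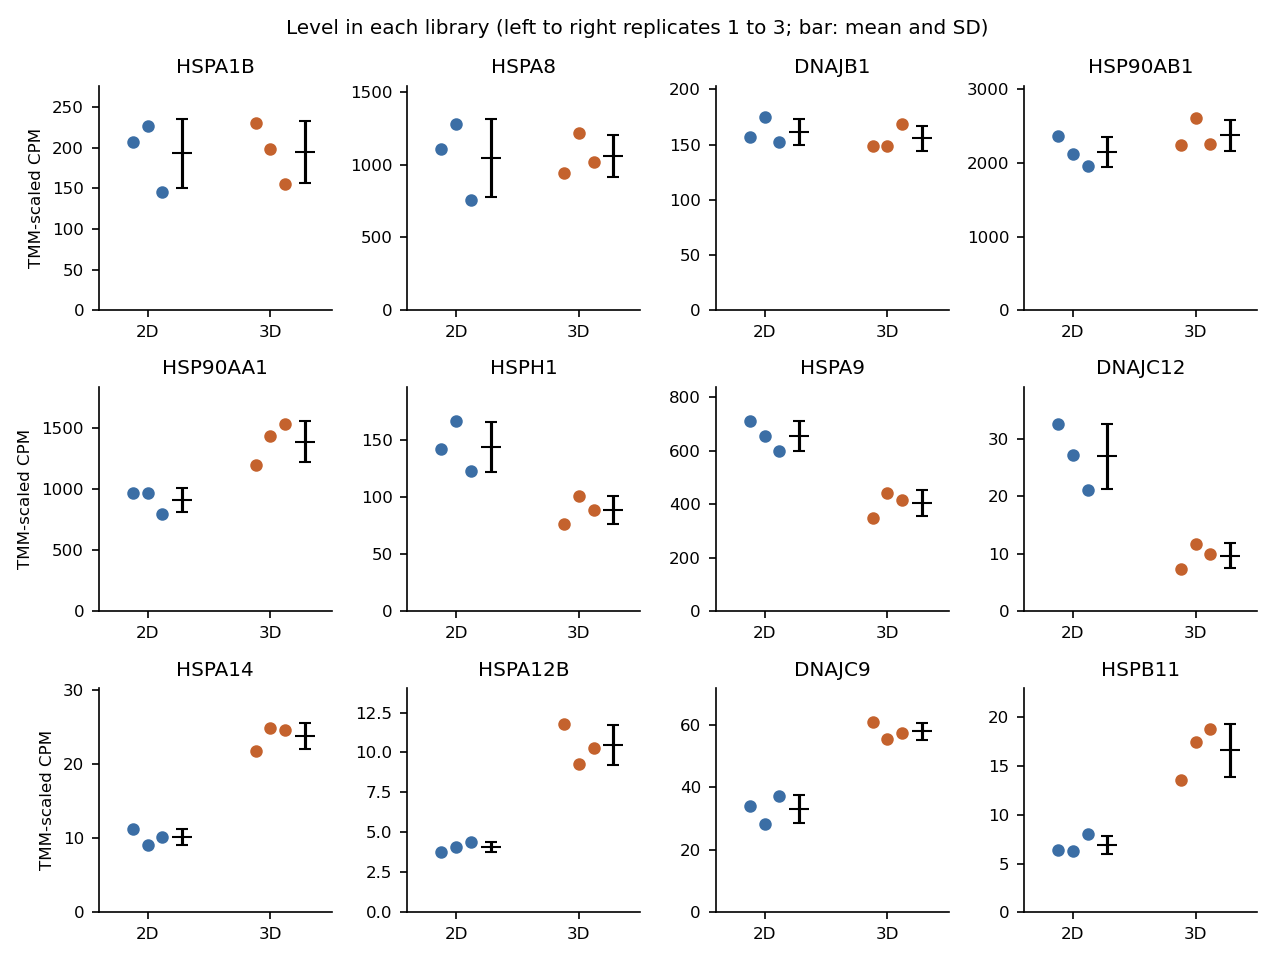
TMM-scaled CPM (y axis, from 0) of 12 members in each library (points, 2D blue and 3D orange), with the mean and SD of 3 libraries as a bar. The upper panels show genes whose groups overlap, such as HSPA1B and HSPA8, and the panels from HSP90AA1 on show genes whose groups are apart.

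Within the HSP70 family, 3 of 8 tested genes rose (HSPA12B, HSPA14 and HSPA12A), 1 fell (HSPA9) and 4 did not pass (4 of 8 called, against 36.6% of all genes), with a median log2 fold change of 0.01. HSPA8, the main HSP70 of unstressed cytosol and also on the heat-inducible list (chr11:123057489-123063231), was at 1104, 1276 and 756 CPM in 2D and at 943, 1216 and 1015 CPM in 3D. The groups overlapped, the log2 fold change was 0.02 ± 0.19 (SE; edgeR adjusted p = 0.955), and the 2D libraries alone spanned 756 to 1276 CPM. The genes that rose are atypical HSP70 relatives expressed at far lower levels.

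HSPA14 (chr10:14838164-14871742), the HSP70 of the ribosome-associated complex that receives nascent chains, was at 11.2, 9.09 and 10.2 CPM in 2D and at 21.8, 24.9 and 24.7 CPM in 3D. It was 2.34-fold higher in 3D without overlap (log2 fold change 1.23 ± 0.16, SE; edgeR adjusted p = 0.000224), a call that held in each alternative. Its partner in that complex, the J-domain protein DNAJC2, rose by 1.37-fold (edgeR adjusted p = 0.0150), from 50.8 ± 3.50 to 69.3 ± 6.50 CPM (SD, n = 3 each). The call for DNAJC2 was lost in 4 of 17 alternatives. The count ratio of HSPA14 to DNAJC2 was 0.205, 0.182 and 0.213 in 2D and 0.316, 0.395 and 0.326 in 3D. The ratios did not overlap (exact permutation p = 0.1). HSPA14 shares its strand and part of its span with RP11-398C13.8, which had a mean of 112 counts against 245 for HSPA14, so some reads may be divided between the genes. DNAJC2 overlaps PMPCB and PSMC2 on the other strand, which had means of 1142 and 720.3 counts against 885 for DNAJC2.

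HSPA12B (chr20:3732667-3753112), a distant HSP70 relative known from endothelial cells, was at 3.76, 4.06 and 4.38 CPM in 2D and at 11.8, 9.30 and 10.3 CPM in 3D. Its groups were well apart, at 2.56-fold (log2 fold change 1.36 ± 0.20, SE; edgeR adjusted p = 0.000453). Of 5 endothelial markers 3 had a row, which summed to 2.00 to 4.79 CPM for plates and 2.46 to 5.49 CPM for the bioreactor, and none of the 3 was called. HSPA12A, its closest relative, rose from 21.0 ± 2.15 to 35.0 ± 12.3 CPM (SD, n = 3 each; edgeR adjusted p = 0.0265). That rise rested largely on 3D replicate 1, at 48.3 CPM against 32.5 and 24.2 in the others, and without it the call was lost at a log2 fold change of 0.42.

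HSP110 proteins are large HSP70 relatives that act as exchange factors. HSPH1 (chr13:31134974-31162389), the heat-inducible HSP110, was at 142, 166 and 123 CPM in 2D and at 76.2, 101 and 88.4 CPM in 3D. All 3D libraries were lower, at 0.617 times the 2D level (log2 fold change −0.70 ± 0.15, SE; edgeR adjusted p = 0.00382), and the call held in each alternative, although the value was −0.34 with length and GC offsets. HSPA4, the constitutive HSP110, was at 161, 153 and 156 CPM in 2D and at 154, 190.1 and 184 CPM in 3D. The groups overlapped and the log2 fold change was 0.17 ± 0.12 (SE; edgeR adjusted p = 0.295); with length and GC offsets it was 0.47 and passed (edgeR adjusted p = 0.00313). The third member, HSPA4L, did not pass at 0.17 ± 0.15 (SE). The count ratio of HSPH1 to HSPA8 was 0.129, 0.130 and 0.163 in 2D and 0.0808, 0.0833 and 0.0871 in 3D, without overlap (exact permutation p = 0.1).

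Among the 35 J-domain genes tested, 4 rose and 8 fell (34.3%, near the 36.6% of all genes), and the median of their log2 fold changes was −0.12. Class A and B proteins, which carry clients to HSP70, contributed no rise. DNAJA3 fell, the other 2 class A genes did not pass, and 3 of 8 class B genes fell, beside 17.6% of all genes. Those were DNAJB14 (log2 fold change −0.75 ± 0.13) and DNAJB12 (−0.41 ± 0.13), both HSP70 partners at the membrane of the endoplasmic reticulum, and DNAJB4 (−0.68 ± 0.20), a cytosolic relative of DNAJB1. DNAJB14 went from 64.1 ± 1.17 to 38.1 ± 4.41 CPM (SD, n = 3 each; edgeR adjusted p = 0.00101) and DNAJB4 from 15.0 ± 2.73 to 9.30 ± 1.68 CPM (edgeR adjusted p = 0.0200). DNAJB14 fell by 0.30 with length and GC offsets, and DNAJB4 then missed the threshold. Of 17 alternatives, 5 lost the call for DNAJB12, 7 that for DNAJB4 and 1 that for DNAJB14. For DNAJB12 these include each fit without 1 of the 2D libraries. Class C joins proteins that share little but the J domain, and 4 of 24 rose while 4 fell (33.3%, near the 36.6% of all genes).

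DNAJC12 (chr10:67796665-67838167), a co-chaperone of the aromatic amino acid hydroxylases, among them the phenylalanine hydroxylase of liver, showed the largest fall of all tested members. It was at 32.5, 27.1 and 21.1 CPM in 2D and at 7.44, 11.7 and 9.91 CPM in 3D. The 3D level was 0.363 times the 2D level (log2 fold change −1.46 ± 0.21, SE; edgeR adjusted p = 0.000420), and the call held in each alternative. Other class C genes that fell were DNAJC27, of a GTPase fused to a J domain (−0.54 ± 0.19), DNAJC13, which works in endosomal sorting (−0.45 ± 0.14), and DNAJC5, the cysteine string protein of secretory vesicles (−0.35 ± 0.12). Of these, DNAJC27 and DNAJC13 were not called with length and GC offsets, where DNAJC13 was at −0.01. The call for DNAJC27 was lost in 13 of 17 alternatives, among them DESeq2. The calls for DNAJC13 and DNAJC5 were lost in 7 of 17 each. For all of these genes the lost calls include each fit without 1 of the 2D libraries.

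The class C genes that rose include nuclear proteins. DNAJC9, a chaperone of histones H3 and H4, rose from 33.1 ± 4.49 to 58.0 ± 2.62 CPM (SD, n = 3 each), with 3D libraries at 60.8, 55.6 and 57.4 CPM and 2D libraries at 34.1, 28.2 and 37.1 CPM (log2 fold change 0.81 ± 0.13, SE; edgeR adjusted p = 0.000976). DNAJC8, found with spliceosomes, was at 53.8, 51.6 and 54.6 CPM in 2D and at 74.4, 89.0 and 103 CPM in 3D (log2 fold change 0.74 ± 0.14, SE; edgeR adjusted p = 0.00173). Both held in each alternative. DNAJC9 shares strand and span with the ribosomal protein gene MRPS16, which had a mean of 1620.5 counts against 662, so a division of reads between them cannot be checked here. DNAJC15, of the inner mitochondrial membrane, rose from 28.2 ± 0.717 to 39.9 ± 5.39 CPM (SD, n = 3 each; edgeR adjusted p = 0.0140); its log2 fold change of 0.51 became 1.00 with length and GC offsets.

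Of the 7 nucleotide exchange factors outside HSP110, HSPBP1 rose and the others did not pass (14.3% called, against 36.6% of all genes). The median log2 fold change of the 7 was 0.01. HSPBP1 went from 27.7 ± 2.79 to 38.4 ± 1.93 CPM (SD, n = 3 each; log2 fold change 0.47 ± 0.13, SE; edgeR adjusted p = 0.0160) and was not called with length and GC offsets, at 0.11. BAG1, which ties HSP70 to the proteasome, stood at 0.28 ± 0.12 and BAG4, a silencer of death receptors, at −0.42 ± 0.17 (SE); neither passed. BAG6, which handles tail-anchored and mislocalised proteins, was at −0.06 ± 0.12 and BAG2, an inhibitor of the ubiquitin ligase STUB1, at 0.01 ± 0.16. BAG2 passed with length and GC offsets at 0.47 (edgeR adjusted p = 0.0224).

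The small heat shock proteins hold unfolded clients without ATP. All 3 of the tested genes with an HSPB symbol of their own rose in 3D, beside 19.0% of all genes tested. With length and GC offsets 1 of these 3 was called higher, HSPB11, which is described below. A further 2, HSPB6 and HSPB9, were too low to test. HSPB1 (HSP27, chr7:76302544-76304296) was at 37.4, 29.8 and 37.1 CPM in 2D and at 55.2, 54.6 and 52.7 CPM in 3D. The groups did not overlap and the 3D level was 1.56-fold higher (log2 fold change 0.64 ± 0.13, SE; edgeR adjusted p = 0.00316). With length and GC offsets the change of HSPB1 was 0.23 and was not called (edgeR adjusted p = 0.164), so its call depended on that setting. HSPB8, the partner of BAG3, was at 0.250, 0.485 and 0.611 CPM in 2D and at 1.29, 0.905 and 1.27 CPM in 3D. The log2 fold change of HSPB8 was 1.32 ± 0.45 (SE; edgeR adjusted p = 0.0368), at a mean of 11.3 counts, beside a processed pseudogene inside its span with 77.5; 11 of 17 alternatives lost this call.

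HSPB11 carries a small heat shock name but is IFT25, a subunit of the transport complex of cilia (chr1:53916574-53945930). It was at 6.45, 6.30 and 7.99 CPM in 2D and at 13.6, 17.5 and 18.8 CPM in 3D. All 3D libraries were higher, at 2.41-fold (log2 fold change 1.27 ± 0.19, SE; edgeR adjusted p = 0.000527), in each alternative. HSPBAP1, named for binding HSPB1, went the other way, from 8.41 ± 0.469 to 4.52 ± 0.867 CPM (SD, n = 3 each; log2 fold change −0.90 ± 0.21, SE; edgeR adjusted p = 0.00692), also in each alternative.

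The chaperonin TRiC is built from the products of TCP1, CCT2, CCT3, CCT4, CCT5, CCT6A, CCT7 and CCT8, with CCT6B as a testis form of CCT6A. Among the 8 main subunits CCT8 rose and none fell; their median log2 fold change was 0.22, with 7 of 8 above 0, and in 6 of 8 all 3D libraries lay above all 2D libraries. The called share was 12.5%, against 36.6% of all genes, and 25.6% of all genes had their 3D libraries above those of 2D. TCP1 (chr6:159778498-159789750) was at 315, 293 and 263 CPM in 2D and at 347, 389 and 362 CPM in 3D. The groups were apart, and the log2 fold change of 0.34 ± 0.12 came close to the threshold (SE; edgeR adjusted p = 0.0511). CCT2 (chr12:69585334-69601571) was at 140.3, 134 and 138 CPM in 2D and at 152, 169 and 155 CPM in 3D, also apart but not called (log2 fold change 0.21 ± 0.11, SE; edgeR adjusted p = 0.165). CCT8 rose from 152 ± 11.8 to 191 ± 5.62 CPM (SD, n = 3 each; edgeR adjusted p = 0.0404), and 9 of 17 alternatives lost that call.

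CCT4 had a negative value, as it did in each alternative: −0.20 ± 0.13 (SE; edgeR adjusted p = 0.233), with means of 287 ± 24.1 CPM for plates and 249 ± 23.6 CPM for the bioreactor (SD, n = 3 each). The count ratio of TCP1 to CCT4 was 1.01, 1.04 and 0.991 in 2D and 1.51, 1.41 and 1.49 in 3D, without overlap (exact permutation p = 0.1). TCP1 and CCT4 had the highest and lowest log2 fold changes of the 8, and the pair was chosen after the values were seen. The ratio is therefore a description, and its p-value adds no support for a change in subunit balance. TCP1 shares part of its span with ACAT2 on the other strand, which had a mean of 1648 counts against 4878. Among the 2D libraries, replicate 1 was the highest in all 8 main subunits, and 3D replicate 1 was the lowest of its group in 6. Over all 74 tested members, 2D replicate 1 was the highest in 37 and 3D replicate 1 the lowest in 37. With length and GC offsets, 5 of the 8 main subunits rose (TCP1, CCT2, CCT5, CCT6A and CCT8), beside 20.5% of all genes fitted that way. CCT6B, at 0.814, 0.667 and 0.833 CPM in 2D and 1.98, 1.55 and 1.27 CPM in 3D, rose by 1.03 ± 0.37 on the log2 scale (SE; edgeR adjusted p = 0.0456) from a mean of 16.8 counts. It lies across LIG3, whose mean was 545 counts on the other strand, and 11 of 17 alternatives lost the call.

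**Figure D4:**
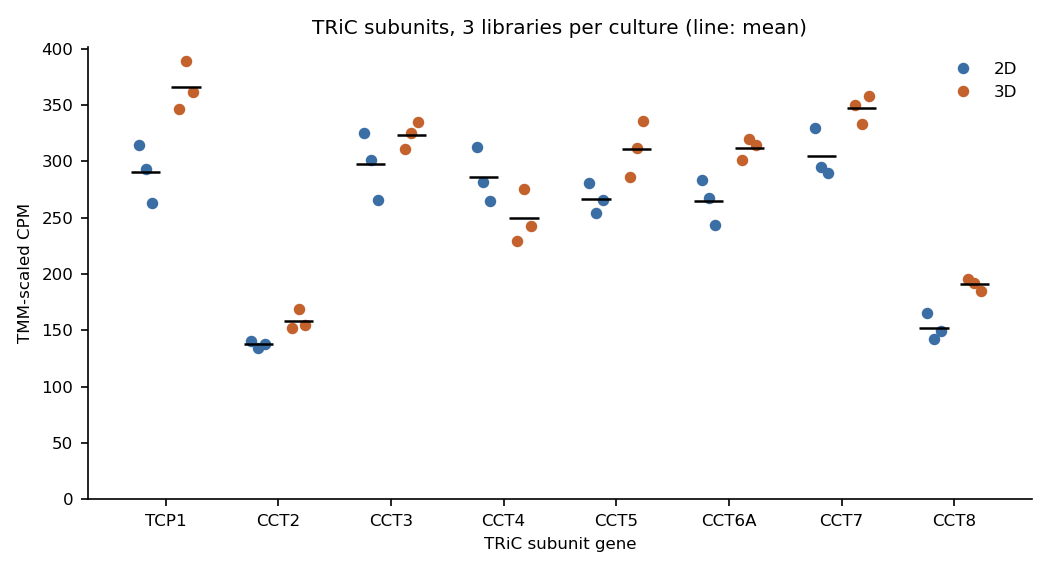
TMM-scaled CPM (y axis, from 0) of the 8 main TRiC subunit genes in the 3 libraries of each culture (points) with their means (lines). The 3D points lie above the 2D points for 6 genes, overlap them for CCT3, and for CCT4 the 3D mean is the lower one.

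Of the 8 mitochondrial members DNAJC15 rose, HSPA9 and DNAJA3 fell and 5 did not pass; the 37.5% called was near the 36.6% of all genes. HSPA9 (mortalin, chr5:138554882-138575445), the HSP70 of the matrix that pulls in imported proteins, was at 711, 654 and 600.0 CPM in 2D and at 349.7, 444 and 418 CPM in 3D. It fell to 0.617 times its 2D level without overlap (log2 fold change −0.70 ± 0.14, SE; edgeR adjusted p = 0.00260), and the call held in each alternative. DNAJA3, its J-domain partner, also fell, from 109 ± 10.9 to 80.9 ± 2.68 CPM (SD, n = 3 each; log2 fold change −0.43 ± 0.12, SE; edgeR adjusted p = 0.0157). HSPA9 counts were 5.86, 6.32 and 5.91 times those of DNAJA3 in 2D and 4.44, 5.29 and 5.21 times in 3D.

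The chaperonin HSPD1 (chr2:197486581-197516738) was at 1984, 1795 and 1567 CPM in 2D and at 1444, 1891 and 1746 CPM in 3D, with overlapping groups and a log2 fold change of −0.07 ± 0.16 (SE; edgeR adjusted p = 0.741). Its lid HSPE1 (chr2:197499994-197503458) was at 198, 212 and 169 CPM in 2D and at 181, 360.3 and 315 CPM in 3D. Replicates 2 and 3 of the 3D group were far above 2D and replicate 1 was within the 2D range. The log2 fold change of HSPE1 was 0.57 ± 0.22 and was not called (SE; edgeR adjusted p = 0.0753); without 3D replicate 1 it was 0.79 and was called, and DESeq2 called it on all 6 libraries. The count ratio of HSPE1 to HSPD1 was 0.0996, 0.118 and 0.108 in 2D and 0.125, 0.191 and 0.181 in 3D. HSPE1 lies inside the span of HSPD1 on the other strand, with a mean of 3597 counts against 26367. A division of reads between them cannot be checked here. HSPE1-MOB4, a readthrough transcript that begins in HSPE1, had 5, 13 and 16 counts in the 2D libraries and 0 in all 3D libraries, where a count of 0 allows up to 0.194 to 0.298 CPM. It shares strand and span with HSPE1 and with MOB4 (mean of 978 counts), so its counts may depend on how reads were assigned.

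Ranked by mean CPM per kilobase of the principal transcript, the most abundant members in 2D were HSP90AB1 (831), HSPD1 (775), HSPA8 (453), HSP90AA1 (271) and HSPA9 (232). In 3D they were HSP90AB1 (918), HSPD1 (737), HSPA8 (459), HSP90AA1 (411) and HSPE1 (300.4). HSPA9 moved from rank 5 to rank 9. In 2D the means of HSP90AB1 and HSPD1 lay closer together than their SDs over the libraries (79.3 and 90.7 CPM per kilobase). Their order within each library was not tested. The first 3 ranks of level per kilobase were held by the same genes in both cultures.

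Transcript length and GC content went with the fold change across all genes. Over 12288 protein-coding genes, Spearman's rho with log2 fold change was −0.369 for length and 0.326 for GC percent; over the 74 tested members it was −0.347 and 0.242. These are descriptions across genes that share the 6 libraries. A fit with offsets for both called 18 members higher and 10 lower, beside 20.5% higher and 16.7% lower among the 13740 genes that could be fitted (37.2% in either direction). DNAJB4, DNAJC13, DNAJC27, HSPB1, HSPB8 and HSPBP1 were then not called, while BAG2, CCT2, CCT5, CCT6A, DNAJC7, HSPA4 and TCP1 rose and DNAJB2 and HSF1 fell. The part of RNA quality or library preparation in these trends was not tested.

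**Figure D5:**
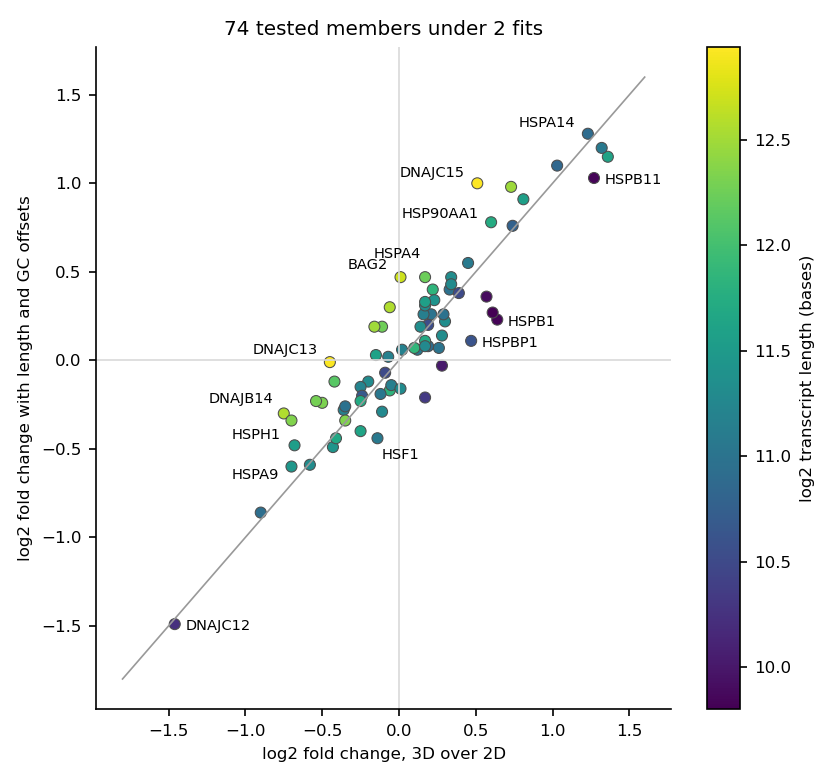
Log2 fold change (3D over 2D) of the 74 tested members in the fit without offsets (x axis) and with length and GC offsets (y axis), coloured by log2 transcript length; the line marks equal values. The long transcripts of DNAJC15 and BAG2, with 38.7% and 37.0% GC, lie above the line. The short ones of HSPB1 and HSPBP1, with 64.5% and 64.6% GC, lie below it. The parts of length and GC in these shifts were not separated.

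Other cytosolic folding genes, outside the name pattern, were listed by function: HSP90 co-chaperones, prefoldin and phosducin-like helpers of TRiC, the R2TP complex and others. Of 42 such genes 41 were tested; 15 rose and 2 fell (41.5%, against 36.6% of all genes). The median over these genes was 0.22 on the log2 scale, against 0.02 over all genes. Without 2D replicate 1, 2D replicate 3 or 3D replicate 3, the number that rose was 9, 8 and 9. The highest values without offsets were those of STUB1, the ubiquitin ligase of HSP70 and HSP90 clients (1.03 ± 0.14), CACYBP, which binds the ubiquitin ligase SIAH1 (0.78 ± 0.12), FKBP8, an immunophilin of the mitochondrial surface (0.76 ± 0.16), SGTA, which hands tail-anchored proteins on (0.65 ± 0.14), and PFDN1, a prefoldin subunit (0.65 ± 0.12). STUB1 went from 29.6 ± 0.413 to 60.7 ± 9.03 CPM (SD, n = 3 each; edgeR adjusted p = 0.000295). The kinase co-chaperone CDC37 and the HSP90 activator AHSA1 also rose, by 0.57 ± 0.11 and 0.49 ± 0.12, beside HSP90AA1. Of the 6 prefoldin genes 2 rose (33.3%, near the 36.6% of all genes). CHORDC1, an HSP90 co-chaperone that is itself heat-inducible, fell (−0.53 ± 0.17). With length and GC offsets 12 rose and 1 fell, and the order changed: NUDCD2 (1.13) and CACYBP (0.93) were highest, while STUB1 was at 0.64, PFDN1 at 0.53, SGTA at 0.40 and FKBP8 at 0.38. Of 17 alternatives, 2 lost the call for CDC37 (at 0.27 with offsets), 3 that for AHSA1 and 5 that for CHORDC1.

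The J-domain members of the endoplasmic reticulum lay on the same side as the secretory chaperones that were left out by name. All 6 of the former had negative log2 fold changes (median −0.33), although DNAJC16 was at 0.30 with length and GC offsets and at 0.04 without 3D replicate 1, and DNAJC1 at 0.01 without 2D replicate 1; DNAJB12 and DNAJB14 fell. Of the 8 genes left out, 6 fell and none rose, beside 17.6% lower among all genes; with length and GC offsets 3 fell, and their median went from −0.62 to −0.41. DNAJB9 stood at −1.62 ± 0.22, DNAJC3 at −0.82 ± 0.18, HSPA5 at −0.54 ± 0.19 and HSP90B1 at −0.51 ± 0.15 (SE); these are chaperones and co-chaperones induced by the unfolded protein response. The call for HSPA5 was lost in 9 of 17 alternatives, that for HSP90B1 in 4 and that for DNAJC3 in 1, the fit with offsets. Those for DNAJB12 and DNAJB14 were lost in 5 and 1.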

How the data were processed

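The RNA of 6 HepG2 samples (3 per culture) was sequenced; groups and replicate numbers come from the sample titles. The authors deposited estimated counts per gene. STAR 2.4.1d, Partek and hg38 are named per the submitters' processing notes; the sources used here give no annotation release, counting settings or strand handling, and 31 members overlap a gene on the other strand. Counts were rounded and fitted with edgeR 4.0.16 (R 4.3.3; low-count filter, TMM scaling, robust quasi-likelihood test), with Benjamini-Hochberg adjustment over all 15314 genes tested and a threshold of 0.05. Replicates differed by more than sampling noise (chi-square per degree of freedom of 11.2 to 29.5 within groups). Standard errors were derived from the fold change and its F statistic. Lengths and GC are those of the GENCODE principal transcript, and their loess offsets used a span of 0.5. DESeq2 1.42.0, limma 3.58.1 and other alternatives are given in the closing section; 17 were run. In simulated data 200 genes were changed, a far smaller share than the 36.6% of genes called here. There edgeR recovered 27.5% of 1.5-fold, 71.9% of 2-fold and 95.5% of 4-fold changes, and 7.69% of its calls were false. These rates may not hold for the calls above. Members and lists were chosen with earlier results of these data known. Per-library values are given for a set of 17 core genes fixed by name, for every called member with a log2 fold change of at least 1 in size and at least 1 CPM, and for a few others chosen after their values were seen. From the list of other folding genes, those with the largest changes in each direction are named, except 1 that is not reported here.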

Additional observations from a re-analysis of the deposited data

How the results depend on the processing

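Of the 25 called members, 10 were called in the same direction under all 17 alternatives: DNAJC8, DNAJC9, HSP90AA1, HSPA12B, HSPA14 and HSPB11 higher, and DNAJC12, HSPA9, HSPBAP1 and HSPH1 lower. No called member changed sign in any of them. Leaving out 1 library at a time gave 7 to 13 members higher and 6 to 13 lower, and 8 to 15 other folding genes higher and 0 to 2 lower. The members called higher numbered 9 without 2D replicate 1, 7 without 2D replicate 2 and 9 without 2D replicate 3, and those called lower 6, 6 and 7. Other folding genes called higher numbered 9 without 2D replicate 1, 8 without 2D replicate 3 and 9 without 3D replicate 3. Without 2D replicate 2 and 3D replicate 1 together, 9 members were higher and 0 other folding genes lower. Other folding genes called lower numbered 1 with length and GC offsets, 1 with the replicate block added to these, and 1 with offsets from the longest transcript, an alternative chosen after seeing the data. Same-numbered samples did not deviate together (correlations of 0.053, −0.00924 and −0.0783). With 3 libraries a group this cannot settle whether they were paired, and the labels state no pairing. With the replicate block 12 members were higher and 10 lower. The cause of these shifts was not tested, beyond the fewer samples in the fits that leave libraries out. Depth limits HSPB8, CCT6B and the 7 untested members.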
